A study of Mus musculus with 24 samples.

Results

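The data describe 9 mouse genes that carry the signal of the circadian clock from its core to other genes of the liver. Members were found by name among the non-control spots of a 2-colour Agilent array, and each was read from its probe with the highest mean Cy5 signal over 24 arrays. They are Dbp, Tef and Hlf, then Nfil3, then Ciart, Bhlhe40 and Bhlhe41, and the target genes Usp2 and Wee1, 9 of the 37008 gene names on the array. Of these 9, 7 had a probe well above background in enough mice to enter the fit across 18638 genes. Ciart and Bhlhe41 did not, and are given by signal only.

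In the core of the clock, CLOCK and BMAL1 (gene symbol Arntl) activate genes through E-box sequences, and the PER and CRY proteins they induce repress them in turn. Dbp, Tef and Hlf are PAR bZIP transcription factors. They activate genes through D-box sequences, which Nfil3, also a bZIP protein, occupies as a repressor, and in liver such genes include enzymes of drug, bile acid and haem metabolism. The levels of many of these transcripts change through the day in mouse liver, and Dbp is among those known for a large daily range.

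The mice were C57BL/6JRcc, as the labels name them, although the tags of the same labels read C57BL/6N and C57BL/6J. All were labelled female and were fed a semi-synthetic diet from 3 to 6 weeks of age. In GLU+GAL mice (n = 12) galactose made up an equal share of the dietary monosaccharide beside glucose, and in GLU mice (n = 12) glucose was the sole monosaccharide. Both diets drew 16% of energy from fat, 20% from protein, 32% from starch and 32% from monosaccharides. On postnatal day 42 the mice were killed in the light phase without food, and no label gives the hour for each mouse. RNA of the right liver lobe carried Cy5, and a pool of all mice carried Cy3. A level below is the log2 ratio of a mouse over that pool, so 0 is the level of the pool, and levels of different genes are not compared with each other. In whole liver, fewer cells of a type and less RNA per cell cannot be told apart.

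In Cy5 the share of spots called well above background was 46.6% to 51.3% by array. The arrays came on 3 slides of 8, with 4 mice of each diet on every slide, and slide and scan cannot be told apart. Hepatocyte genes marked the tissue, 7 of 8 being measured and well above background on all 24 arrays. The Cy3 signals of GLU+GAL 4 had a median correlation of 0.968 with those of the other arrays, and the next lowest array had 0.990. Against its label female, GLU+GAL 12 had the Y-linked genes Ddx3y and Eif2s3y above background and Xist not, and the other 23 arrays showed the reverse. Of the other Y-linked genes looked at, Uty was above background on 0 arrays and Kdm5d on all 24. Differences of the members, the spread tests of Dbp, Tef and Wee1 and the count of correlated pairs are therefore also given without both arrays. Correlations of single pairs, and those of Dbp with genes of other lists, are not.

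Promoter sequences are shown for Dbp, Tef and Nfil3, whose levels moved together or against each other across mice, and for Ciart, which held the most E-boxes. RefSeq promoter sequences (GRCm38.p6) were matched for 7 of 9 members, as 8 promoters, and Bhlhe40 and Wee1 were not among them. The 250 bases before the annotated start were searched on both strands for the E-box CACGTG, a variant CACGTT, the D-box TTANNTAA and TAGGTCA, the core of the element bound by ROR and REV-ERB receptors. These motifs do not overlap each other in the windows printed. Each sequence reads 5′ to 3′ on the strand of the gene, and capitals mark the matches. The windows lie at chr7:45704997-45705246 (+) for Dbp, chr15:81802423-81802672 (+) and chr15:81811164-81811413 (+) for the upstream and downstream starts of Tef, chr13:52981040-52981289 (-) for Nfil3 and chr3:95882229-95882478 (-) for Ciart.
Dbp: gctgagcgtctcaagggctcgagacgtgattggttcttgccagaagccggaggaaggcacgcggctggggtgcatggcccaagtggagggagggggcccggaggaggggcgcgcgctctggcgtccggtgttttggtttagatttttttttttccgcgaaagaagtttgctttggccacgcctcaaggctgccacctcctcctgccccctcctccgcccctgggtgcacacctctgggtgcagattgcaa
Tef, upstream start: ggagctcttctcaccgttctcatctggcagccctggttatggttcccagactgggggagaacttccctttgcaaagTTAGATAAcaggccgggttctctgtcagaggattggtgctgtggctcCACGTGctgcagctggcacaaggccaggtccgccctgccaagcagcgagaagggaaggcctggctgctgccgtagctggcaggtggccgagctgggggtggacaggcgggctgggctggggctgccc
Tef, downstream start: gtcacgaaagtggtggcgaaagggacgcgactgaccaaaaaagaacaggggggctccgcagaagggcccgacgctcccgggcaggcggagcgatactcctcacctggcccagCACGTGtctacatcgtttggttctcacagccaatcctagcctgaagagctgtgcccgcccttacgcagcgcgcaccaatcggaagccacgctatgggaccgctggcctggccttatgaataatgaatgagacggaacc
Nfil3: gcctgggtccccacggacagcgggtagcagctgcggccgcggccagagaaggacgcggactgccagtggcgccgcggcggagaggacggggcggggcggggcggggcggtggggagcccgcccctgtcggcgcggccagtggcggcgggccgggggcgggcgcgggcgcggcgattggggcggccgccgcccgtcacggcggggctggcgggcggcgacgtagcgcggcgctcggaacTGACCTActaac
Ciart: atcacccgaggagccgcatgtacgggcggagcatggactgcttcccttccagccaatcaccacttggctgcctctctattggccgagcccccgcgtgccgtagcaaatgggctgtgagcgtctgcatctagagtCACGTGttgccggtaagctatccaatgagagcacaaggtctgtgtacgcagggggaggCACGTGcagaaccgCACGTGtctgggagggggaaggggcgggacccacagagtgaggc
Tef held the E-box at both starts, from base -127 to -122 at the upstream one and from -138 to -133 at the downstream one. A D-box match, from -174 to -167, was also present at the upstream start. Ciart held 3 E-boxes, beginning at -116, -58 and -44, and Bhlhe41 held 1, beginning at -153. In Nfil3 the receptor core was found on the opposite strand, as TGACCTA, from -12 to -6. None of the 4 motifs was in this window of Dbp, Hlf or Usp2, and CACGTT was in none of the 8 promoters. Of 32851 promoters of the same length, 6.02% held the E-box, 3.85% CACGTT, 5.43% the D-box and 2.23% the receptor core. These matches describe the letters and are not evidence of binding.

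The first comparison asked whether the members' levels differed between GLU+GAL and GLU livers. None of the 7 measured members passed the threshold of 0.05 on the adjusted p in limma, and each had an adjusted p of 0.999 over the 18638 genes tested. Of all genes, 0% passed that threshold, with 0 genes called and a lowest adjusted p of 0.521. At an unadjusted p under 0.05, 0 members stood among the 802 genes so called (4.3%), of which 307 were higher in GLU+GAL (1.65%) and 495 lower (2.66%). The median difference over the 7 measured members was 0.14 on the log2 scale, beside 0.0013 over all genes tested. Without regard to sign the medians were 0.14 and 0.046, as a description of those that passed the signal filter. No member passed that filter through 1 diet alone.

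Dbp, the D-site binding activator, was read at chr7:52965265-52965324 (mm9, + strand), the build given in the file headers. Its level ran from -2.60 through a median of -0.56 to 1.87 in GLU+GAL mice, against -2.64, -0.95 and 0.26 in GLU mice. The 2 highest mice of all 24 were GLU+GAL 8 and GLU+GAL 7, and the lowest were GLU 8 and GLU+GAL 1, so both diets reached the bottom of the range and 4 GLU+GAL mice lay above every GLU mouse. From the lowest to the highest of the 24 livers the ratio covered 22.8-fold. Mean levels were -0.46 ± 1.57 in GLU+GAL mice and -1.04 ± 0.87 in GLU mice (SD, n = 12 each). The difference of 0.58 ± 0.47 (SE, 95% interval -0.39 to 1.55, limma unadjusted p = 0.230) was smaller than the spread between mice.

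Tef, the thyrotroph embryonic factor and a close relative of Dbp, was read at chr15:81657221-81657280 (mm9, +). Its level ran from -1.63 through a median of -0.27 to 0.86 in GLU+GAL mice, against -1.32, -0.46 and 0.07 in GLU mice. As for Dbp, GLU+GAL 8 and GLU+GAL 7 were highest, and GLU+GAL 1 and GLU 8 were lowest. Means of -0.24 ± 0.72 in GLU+GAL mice and -0.46 ± 0.36 in GLU mice (SD) gave a difference of 0.22 ± 0.21 (SE, 95% interval -0.21 to 0.66, limma unadjusted p = 0.305). Its 4 probes did not carry the same signal. A second probe correlated with the first at r = 0.944 over the 24 mice, whereas the dimmest (well above background on 19 arrays) correlated at 0.456 and gave a difference of -0.02.

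Hlf, the hepatic leukaemia factor and the third PAR bZIP activator, was read at chr11:90201236-90201295 (mm9, -). It covered a narrower range, from -0.42 through -0.09 to 0.53 in GLU+GAL mice, against -0.54, -0.20 and 0.36 in GLU mice. GLU+GAL 8 was again highest, but GLU+GAL 7 ranked 6 of 24 and the second place was held by GLU 5. Its means were -0.05 ± 0.32 in GLU+GAL mice and -0.14 ± 0.27 in GLU mice (SD), and the difference was 0.09 ± 0.11 (SE, limma unadjusted p = 0.428).

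Nfil3, the repressor at D-boxes, was read at chr13:53062578-53062637 (mm9, -). Its level ran from -1.07 through -0.21 to 0.99 in GLU+GAL mice, against -0.60, -0.01 and 0.77 in GLU mice. At the extremes the mice stood opposite to their place in Dbp, with GLU+GAL 7 and GLU+GAL 8 lowest and GLU+GAL 9 and GLU 8 highest. Means of -0.14 ± 0.71 in GLU+GAL mice and -0.0031 ± 0.45 in GLU mice (SD) gave a difference of -0.13 ± 0.22 (SE, limma unadjusted p = 0.550). A second probe correlated with the first at 0.995 and gave a difference of -0.10.

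Bhlhe40 codes for a basic helix-loop-helix repressor that competes for E-boxes, and its probe lay at chr6:108616309-108616368 (mm9, +). Its level ran from -0.40 through 0.04 to 0.56 in GLU+GAL mice, against -0.68, 0.12 and 0.38 in GLU mice. GLU+GAL 7 and GLU+GAL 8 were again the 2 highest, although the GLU median was the greater. The difference was 0.05 ± 0.11 (SE, limma unadjusted p = 0.651), from means of 0.10 ± 0.28 in GLU+GAL mice and 0.05 ± 0.30 in GLU mice (SD).

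Ciart, which codes for a repressor of CLOCK and BMAL1 also called CHRONO, was read at chr3:95682433-95682492 (mm9, -). Of 24 arrays, 2 gave a Cy5 signal well above background, GLU+GAL 7 and GLU+GAL 8. Signals there were 112 and 138 intensity units, against a median of 48.8 over all GLU+GAL arrays and 44.6 over the GLU arrays, whose highest was 63.9. The only mice with a measured Ciart were thus those with the highest Dbp. Bhlhe41, the closest relative of Bhlhe40, was read at chr6:145812652-145812711 (mm9, -) and stood well above background on 0 arrays. Its Cy5 signal ran from 34.4 to 48.5 units on GLU+GAL arrays, against 37.8 to 49.6 on GLU arrays, and no fold is given for either gene.

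Usp2, a deubiquitinating enzyme, was read at chr9:43903651-43903710 (mm9, +). Its level ran from -0.77 through -0.14 to 1.44 in GLU+GAL mice, against -0.78, -0.40 and 0.25 in GLU mice. GLU+GAL 7 and GLU+GAL 8, at 1.44 and 1.38, lay far above the third mouse at 0.25, and below them the diets overlapped. Means were -0.01 ± 0.73 in GLU+GAL mice and -0.36 ± 0.31 in GLU mice (SD). The difference of 0.35 ± 0.21 (SE, 95% interval -0.08 to 0.78) had the smallest unadjusted p of the members in limma, 0.107. A second probe, well above background on 9 arrays, did not pass the filter. It correlated with the first at 0.892 and gave a difference of 0.15.

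Wee1, the kinase that holds back entry into mitosis by phosphorylating CDK1, was read at chr7:117286573-117286632 (mm9, +). It was well above background on 12 GLU+GAL and 11 GLU arrays, and its mean Cy5 signal of 123 units was low. Its level ran from -0.52 through -0.20 to 0.70 in GLU+GAL mice, against -0.47, -0.22 and -0.09 in GLU mice. The GLU mice lay close together, and GLU+GAL mice lay on both sides of them, 5 above every GLU mouse and 1 below. Means of -0.09 ± 0.37 in GLU+GAL mice and -0.23 ± 0.12 in GLU mice (SD) gave a difference of 0.14 ± 0.11 (SE, limma unadjusted p = 0.196).

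**Figure D1:**
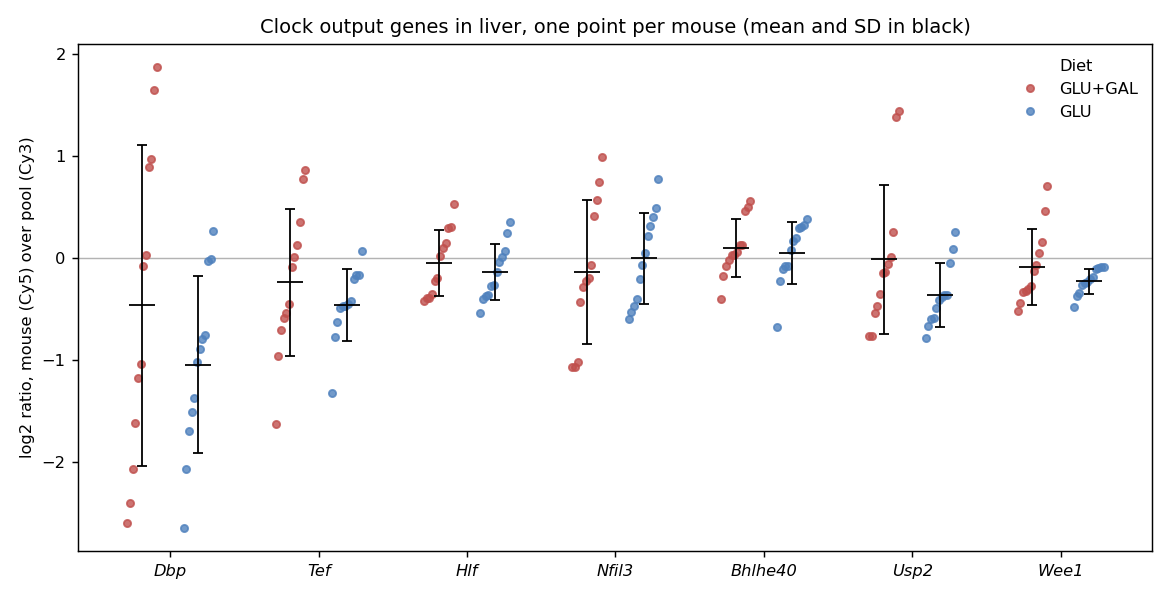
Levels of the 7 measured members as log2 ratios of each mouse over the pool (vertical axis), GLU+GAL mice in red to the left of GLU mice in blue, with the mean and SD of 12 mice in black. Dbp covers the widest range, from -2.64 to 1.87, and the diets overlap for each gene.

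The sign of these differences was not the same on every slide, and a pair of mice carried much of them. On slides 1, 2 and 3 the difference in Dbp, GLU+GAL minus GLU, was 0.48, -0.18 and 1.43. For Tef it was 0.30, -0.40 and 0.76, and for Usp2 0.31, -0.05 and 0.79. Hlf gave 0.28, -0.17 and 0.16 and Bhlhe40 0.20, -0.16 and 0.11, whereas Wee1 stayed above 0 with 0.27, 0.04 and 0.10 and Nfil3 below it with -0.07, -0.07 and -0.26. GLU+GAL 7 lay on slide 3 and GLU+GAL 8 on slide 1. Without these 2 mice, left out after their values were seen, the difference was 0.13 for Dbp, 0.01 for Tef, 0.01 for Hlf, 0.05 for Nfil3, -0.03 for Bhlhe40, 0.07 for Usp2 and 0.0067 for Wee1. Without GLU+GAL 4 and 12 it was 0.60 for Dbp, 0.23 for Tef, 0.09 for Hlf, -0.18 for Nfil3, 0.03 for Bhlhe40, 0.36 for Usp2 and 0.16 for Wee1, and the count of genes past the adjusted threshold stayed at 0.

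The second comparison concerned the spread between mice. Each of the 7 measured members varied more from liver to liver than the median transcript. The SD within diets, pooled over both, was 1.27 for Dbp, which ranked 9 among 18638 genes. Nfil3 (0.591, rank 138), Tef (0.567, rank 161) and Usp2 (0.561, rank 165) lay beyond the 99th percentile of all genes, which was 0.539. Hlf (0.301, rank 1390), Bhlhe40 (0.293, rank 1521) and Wee1 (0.276, rank 1927) lay between the median of all genes, 0.169, and their 95th percentile, 0.339. The dimmest of the 7 probes, those of Wee1 and Usp2, had mean Cy5 signals of 123 and 169 units, and with Agilent's own processed signals in place of normexp with an offset of 50 their pooled SDs were 0.581 and 0.991. Without GLU+GAL 7 and 8, chosen after their values were seen, the pooled SD was 0.175 for Wee1 and 0.324 for Usp2. It was 1.11 for Dbp, 0.537 for Nfil3 and 0.482 for Tef.

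**Figure D2:**
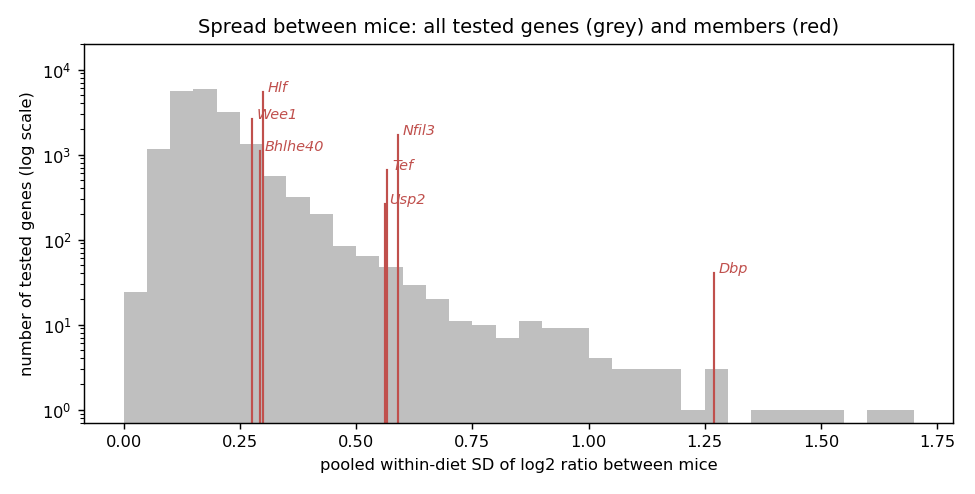
Number of tested genes (vertical, log scale) by pooled within-diet SD of the log2 ratio between mice (horizontal), with the measured members as red lines whose heights carry no value. Dbp stands at 1.27, rank 9 of 18638 genes, and Nfil3, Tef and Usp2 stand between 0.561 and 0.591.

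Between diets, the SD was 1.81 times as large in GLU+GAL as in GLU mice for Dbp (1.57 against 0.869), 2.03 times for Tef (0.720 against 0.355), 2.35 times for Usp2 (0.731 against 0.311) and 3.01 times for Wee1 (0.371 against 0.123). Nfil3 had SDs of 0.705 in GLU+GAL mice and 0.448 in GLU mice, Hlf 0.325 and 0.274, and Bhlhe40 0.284 and 0.302. None of these differences in spread passed the adjusted threshold, in a limma fit to absolute deviations from the diet median, and each adjusted p was 0.999. Across all genes 0% passed. At an unadjusted p under 0.05, 3 of the 7 measured members had the larger spread in GLU+GAL mice (Dbp, p = 0.00703; Tef, p = 0.0128; Wee1, p = 0.0184), beside 2.16% of all genes in that direction and 0.499% in the other. Usp2 had p = 0.0924, Nfil3 0.196, Hlf 0.358 and Bhlhe40 0.767 in the same fit. GLU+GAL 7 and 8 were chosen after their values were seen. Leaving out the highest mice of a diet tends to narrow its spread, so their omission cannot decide whether the diets differ. Without GLU+GAL 7 and 8 the unadjusted p was 0.116 for Dbp, 0.109 for Tef and 0.157 for Wee1. Without GLU+GAL 4 and 12 it was 0.00148, 0.00314 and 0.00883 for the same genes.

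The third question was whether the members varied together from mouse to mouse. Mice high in Dbp were high in Tef and low in Nfil3, in both diets and on each slide. Deviations from the mean of the own diet were correlated over 24 mice and tested by permuting mice within diets (100000 resamples, 2-sided), with p adjusted over the 36 pairs of the 9 members. Of the 21 pairs of measured members, 16 passed the threshold, 12 with a positive and 4 with a negative correlation. By Spearman's rho 7 of them also passed: Dbp with Tef, Nfil3 and Usp2, Tef with Nfil3 and Usp2, Hlf with Usp2, and Nfil3 with Wee1. The rest did not, among them Usp2 and Wee1 (rho = 0.528, adjusted permutation p = 0.0638), Dbp and Wee1 (0.536, 0.0639) and Nfil3 and Usp2 (-0.452, 0.0937). The median of the absolute r over the 21 pairs was 0.562. Over 18490 genes, the median absolute r with a single member lay between 0.142 for Wee1 and 0.192 for Hlf.

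Dbp and Tef gave r = 0.930 and rho = 0.943 over the 24 mice (adjusted permutation p = 0.00018, from the smallest p the resamples can give, 1e-05). Within diets r was 0.942 in GLU+GAL mice and 0.890 in GLU mice, and on slides 1, 2 and 3 it was 0.952, 0.904 and 0.993. It was 0.920 without GLU+GAL 1 and 8, the mice whose deviations in Dbp from the mean of their diet lay farthest from the median deviation, and 0.893 without GLU+GAL 7 and 8. With each of the 24 mice left out in turn it ran from 0.915 to 0.947.

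Dbp and Nfil3, the activator and the repressor of the same element, gave r = -0.898 and rho = -0.868 (adjusted permutation p = 0.00018). It was -0.910 in GLU+GAL mice and -0.871 in GLU mice, and -0.978, -0.929 and -0.873 on slides 1, 2 and 3. Without GLU+GAL 1 and 8 it was -0.869, and without GLU+GAL 7 and 8 it was -0.858. Tef and Nfil3 gave r = -0.800 and rho = -0.783 (adjusted permutation p = 0.00024), with -0.832 in GLU+GAL mice and -0.717 in GLU mice. Of all 18490 genes, Nfil3 had the lowest correlation with Dbp. Dbp, Tef and Nfil3 passed the threshold with each other within each diet taken alone, and these were the 3 pairs that did so in GLU mice.

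Relations of Dbp and Tef with the target genes were positive, and most no longer passed without a pair of mice. That pair, GLU+GAL 7 and 8, was chosen after their high values were seen. Leaving out the highest mice tends to weaken a positive correlation, so a relation that then fails is not shown to be absent. Dbp and Usp2 gave r = 0.719 and rho = 0.601 (adjusted permutation p = 0.00194), with 0.791 in GLU+GAL mice and 0.430 in GLU mice. Tef and Usp2 gave r = 0.765 and rho = 0.659 (adjusted permutation p = 0.00072), and 0.588 without GLU+GAL 7 and 8, which still passed. Dbp and Wee1 gave 0.585 (adjusted permutation p = 0.0317), with 0.712 in GLU+GAL mice and -0.04 in GLU mice. Tef and Wee1 gave 0.562 (adjusted permutation p = 0.0455), with 0.710 in GLU+GAL mice and -0.307 in GLU mice. It was 0.166 without GLU+GAL 7 and 8, and with the 24 mice left out in turn it no longer passed in 10 cases. Usp2 and Wee1 gave 0.738 (adjusted permutation p = 0.00965), with 0.838 in GLU+GAL mice and 0.04 in GLU mice. Without GLU+GAL 7 and 8 the correlation was 0.529 for Dbp and Usp2, 0.266 for Dbp and Wee1 and 0.212 for Usp2 and Wee1, and none of these passed. Without GLU+GAL 1 and 8 it was 0.606 for Dbp and Usp2 and 0.439 for Dbp and Wee1. Nfil3 ran against both targets, with r = -0.614 for Usp2 (adjusted permutation p = 0.0127) and -0.632 for Wee1 (adjusted permutation p = 0.0109), and with -0.381 and -0.431 without GLU+GAL 7 and 8, which did not pass. With arrays median-centred in place of loess these were -0.425 and -0.406 (adjusted permutation p = 0.0999 and 0.120), which did not pass either. With Agilent's processed signals, the adjusted permutation p was 0.0527 for Dbp and Wee1 and 0.0712 for Tef and Wee1. In all, 4 of the 21 pairs passed without those 2 mice, and 12 passed without GLU+GAL 4 and 12.

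**Figure D3:**
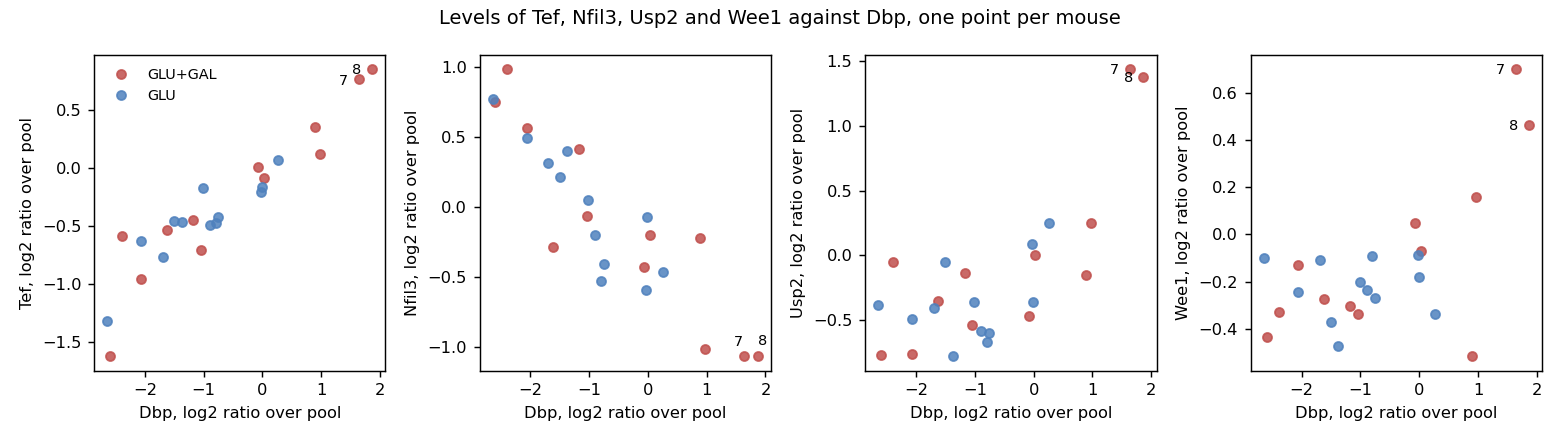
Tef, Nfil3, Usp2 and Wee1 (vertical axes) against Dbp (horizontal axes), each as the log2 ratio over the pool, 1 point per mouse, GLU+GAL in red and GLU in blue. Tef follows Dbp (r = 0.930) and Nfil3 runs against it (r = -0.898) along the whole range, whereas for Usp2 and Wee1 the mice numbered 7 and 8 of GLU+GAL stand apart.

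Hlf, of the same family as Dbp and Tef, gave r = 0.478 for Dbp (adjusted permutation p = 0.0494) and 0.505 for Tef (adjusted permutation p = 0.0388). With the 24 mice left out in turn, the relation with Dbp no longer passed in 15 cases and that with Tef in 8. Its relation with Usp2 was the closest it had among members, at r = 0.596 and rho = 0.691 (adjusted permutation p = 0.00965). Without GLU 5 and GLU+GAL 8, the mice whose deviations in Hlf lay farthest from the median deviation, this was 0.521. Hlf and Wee1 gave r = 0.484 (adjusted permutation p = 0.0475), which no longer passed in 9 of 24 cases with single mice left out. Bhlhe40 passed with Usp2 (r = 0.506, adjusted permutation p = 0.0297) and with Wee1 (r = 0.464, adjusted permutation p = 0.0388), and on slide 2 the first of these was -0.19. With slide as a block, the relations of Hlf with Dbp, Tef and Wee1 and of Bhlhe40 with Usp2 and Wee1 did not pass. Their adjusted permutation p was 0.0850, 0.0884, 0.0699, 0.0667 and 0.0957. With Dbp, Bhlhe40 gave 0.321 (adjusted permutation p = 0.180), with 0.550 in GLU+GAL mice and -0.03 in GLU mice.

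Of the 21 measured pairs, 13 passed in GLU+GAL mice alone and 3 in GLU mice alone, with median absolute r of 0.710 and 0.307. The difference between diets was tested for each pair by permuting diet labels (100000 resamples). No pair passed, with a lowest adjusted p of 0.366, and no measured pair reached an unadjusted p under 0.05. The counts per diet therefore do not show that covariation differed between diets.

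**Figure D4:**
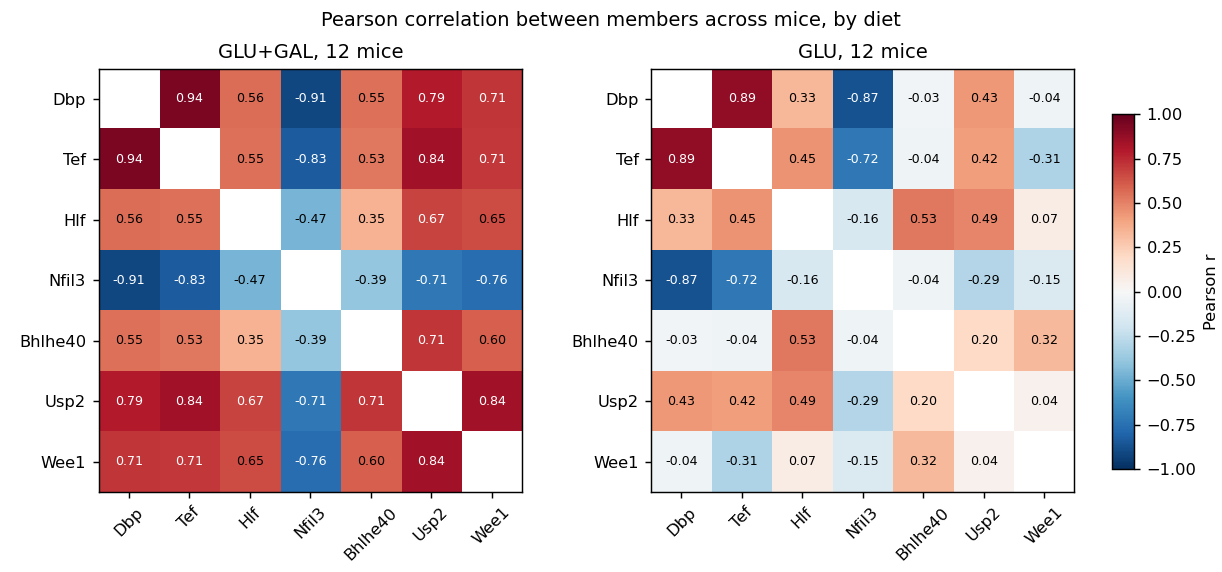
Pearson correlation of each pair of measured members over the 12 GLU+GAL mice (left) and the 12 GLU mice (right), coloured from -1 to 1. The block of Dbp, Tef and Nfil3 is strong in both diets (Dbp with Tef 0.942 and 0.890), while the columns of Usp2 and Wee1 are paler in GLU mice (Usp2 with Wee1 0.838 and 0.04), a difference that did not pass its test.

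The genes whose levels were most like each member's across the 24 mice are given as a description, by Pearson's r of deviations from diet means. Only genes with a current gene symbol were eligible. For Dbp they were Nr1d2 (0.930), which codes for the receptor REV-ERB beta, then Tef (0.930) and the fructose transporter gene Slc2a5 (0.852). For Tef they were Dbp, Nr1d2 (0.898) and the clock repressor gene Cry2 (0.864), and the most opposed was Leo1 (-0.864), of the PAF1 complex. Nfil3 was most like Pnrc1 (0.897), a nuclear receptor coactivator gene, the clock activator gene Arntl (0.894) and Desi2 (0.888), and most opposed to Dbp. Usp2 was most like the period gene Per2 (0.877), the vitamin transporter gene Slc5a6 (0.848) and the peroxisomal Pex26 (0.842).

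Hlf was most like Stx17 (0.816), a syntaxin gene of autophagosomes, the carnitine transporter gene Slc22a5 (0.810) and Gm23952 (0.793), and most opposed to the calmodulin gene Calm3 (-0.770). Wee1 was most like Azin1 (0.761), Pcsk4 (0.750) and Htra3 (0.743). For Bhlhe40 the closest were Gcnt2 (0.684), the phosphate transporter gene Slc20a1 (0.654) and Tob2 (0.648), and the most opposed Gm11454 (-0.729). For Usp2 and Wee1 alike the most opposed was 2310001H17Rik, at -0.788 and -0.760.

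Genes of the core loop, of which 14 of 15 were measured, did not pass the adjusted threshold between diets, and 0 had an unadjusted p under 0.05. Their smallest p belonged to Cry2, with a difference of 0.17 ± 0.10 (limma unadjusted p = 0.124), followed by Per2 at 0.21 ± 0.16 and Per3 at 0.16 ± 0.15 (SE). Correlations with Dbp were tested for 37 genes of 3 lists in 1 family. Over 18490 genes, 1.53% had an absolute r with Dbp of 0.6 or more, 152 positive and 130 negative. That cut is on r and differs from the adjusted threshold, which was not applied to all genes. In the core loop, 5 genes passed with a positive correlation, namely Nr1d2 (0.930), Per3 (0.781), Cry2 (0.722), Per2 (0.594) and Nr1d1 (0.586), and 2 with a negative one, Arntl (-0.870) and Cry1 (-0.580). Their adjusted permutation p ran from 0.000185 for Nr1d2 and Arntl to 0.0184 for Nr1d1, each over 24 mice. Without GLU+GAL 1 and 8, r was 0.923 for Nr1d2, -0.851 for Arntl, 0.689 for Per3, 0.594 for Cry2, 0.467 for Per2, 0.556 for Nr1d1 and -0.585 for Cry1. On slides 1, 2 and 3 it was 0.923, 0.945 and 0.948 for Nr1d2 and -0.962, -0.908 and -0.901 for Arntl, whereas Cry1 gave -0.847, -0.190 and -0.751.

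Known targets of the PAR bZIP factors include genes of drug, bile acid and haem metabolism. All 11 listed were measured, 5 with a difference above 0 and 6 below, and 0 had an unadjusted p under 0.05 between diets. The smallest p belonged to Abcb1a, a drug efflux pump gene, at 0.11 ± 0.09, then Por, the electron donor of cytochromes P450, at -0.13 ± 0.14, and Nr1i3, the receptor CAR, at 0.09 ± 0.10 (SE). Of 9 with a value in every mouse, 1 passed in its correlation with Dbp, namely Por at r = 0.726 and rho = 0.637 (adjusted permutation p = 0.00227), with 0.912, 0.718 and 0.634 on slides 1, 2 and 3. Alas1, the rate-limiting enzyme of haem synthesis, gave 0.413 and Cyp7a1, that of bile acid synthesis, gave 0.427, with adjusted permutation p of 0.150 and 0.107.

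Among 14 other transcripts with a daily rhythm in liver, Slc45a3 (-0.17 ± 0.06, limma unadjusted p = 0.0119) and Avpr1a, a vasopressin receptor gene (-0.21 ± 0.10, limma unadjusted p = 0.0378), had an unadjusted p under 0.05, and neither passed the adjusted threshold (adjusted p = 0.999). Noct, the gene of the phosphatase nocturnin, came next at 0.13 ± 0.11 (SE). With Dbp, 1 passed positively, the liver glycogen synthase gene Gys2 (0.732), and 3 negatively, namely Cdkn1a (-0.755), the gene of a cell cycle inhibitor, Lonrf3 (-0.723) and Avpr1a (-0.625). Their adjusted permutation p ran from 0.000277 for Cdkn1a to 0.00892 for Avpr1a. Without GLU+GAL 1 and 8, r was 0.668 for Gys2, -0.680 for Cdkn1a, -0.691 for Lonrf3 and -0.555 for Avpr1a.

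Marker genes of other cell types and measures of array quality were set against Dbp in 14 relations, and none passed after adjustment. The lowest adjusted permutation p, 0.242, belonged to endothelial markers (r = 0.414 over 24 mice) and cholangiocyte markers (r = -0.510), and stellate markers gave r = 0.475 with an adjusted permutation p of 0.248. All 5 endothelial and all 4 stellate markers were measured. Of 4 cholangiocyte markers 2 were measured, and Epcam was above background on 0 and Krt7 on 4 arrays. The mean level of the endothelial list ran from -0.17 to 0.23 in GLU+GAL mice and from -0.21 to 0.17 in GLU mice. That of the cholangiocyte list ran from -0.36 to 0.25 in GLU+GAL mice and from -0.22 to 0.19 in GLU mice, and that of the stellate list from -0.18 to 0.36 in GLU+GAL mice and from -0.06 to 0.17 in GLU mice. Their part in the spread of Dbp was not tested. The hepatocyte list gave r = 0.104 with Dbp.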

How the data were processed

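Liver RNA of 24 mice was measured on 24 2-colour arrays. Per the file headers, the deposited scanner files hold spot intensity values made with Agilent Feature Extraction 10.7.3.1, as scanned and as processed by that program. A series table deposited by the authors holds log2 values, whose scaling the sources used here do not give, and served as an alternative. All its 24 columns had a median of 8.6 and matched the Cy5 channel of their own array best. Across spots, each column correlated with the log2 Cy5 signal of its own array at 0.991 or more, so genes were not centred.

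Mean signals were corrected by normexp (offset 50) and log2 ratios of Cy5 over Cy3 normalised by loess within arrays, giving controls no weight (R 4.3.3, limma 3.58.1). Outlier spots were left out and the spots of a probe averaged. A probe passed when at least 6 arrays of a diet had its Cy5 signal well above background, and the brightest probe represented a gene (18638 genes). Dyes were not swapped. Diets were compared with lmFit and eBayes, 2-sided, with Benjamini-Hochberg adjustment over all genes. Spread was tested by limma on absolute deviations, and correlations by permutation (numpy 2.4.6, scipy 1.17.1). The adjustment over 36 pairs keeps 15 pairs with a gene near background, which are not reported. The fits were tested on simulated data. Named genes were the members, the 3 smallest p of each other list, and the 3 most like and 1 most opposed gene of each member. The most like and most opposed were taken among genes with a current symbol. Genes outside this rule, namely list genes past the threshold in correlation with Dbp, Alas1, Cyp7a1, and genes of the cell type and array checks, were named after their values were seen. Members and lists were chosen with earlier results of these data known. The mice are the replicates, and the number of arrays limits the precision. Motifs were searched in RefSeq promoters of GRCm38.p6, and probe positions are in mm9, with none converted.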

Additional observations from a re-analysis of the deposited data

Results flagged for a closer look

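One array showed a signal in genes that no comparison used. On GLU+GAL 12, labelled female, the Cy5 signal of the Y-linked Eif2s3y was 9.49 times the median of the other 23 arrays, and Ddx3y was also well above background. Differences of the members and the count of correlated pairs without this array and GLU+GAL 4 stand beside the results above.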

How the results depend on the processing

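Over 16 alternatives of background correction, normalisation, channel, source table, filter, probe choice, variance model, array weights, slide block, replicate block and leaving out GLU+GAL 4 and 12 (15 for Wee1, which the filter for all 24 arrays drops), no member's difference changed sign or passed the adjusted threshold. Dbp ran from 0.47 to 0.65 and Tef from 0.16 to 0.29 over these 16. The filters, variance model, slide and replicate blocks, quantile scaling after loess and kept outlier spots repeated the reported differences. Those settings could not test the sign. The filters, variance model and blocks bear on the p alone. Quantile scaling after loess left the p as reported too, and kept outlier spots nearly so (Wee1, limma unadjusted p = 0.197). With Agilent's processed signals Usp2 gave 0.52 and Wee1 0.27, and with array weights Nfil3 gave -0.03. Within slide 2 the sign turned for Dbp (-0.18), Tef (-0.40), Hlf (-0.17), Bhlhe40 (-0.16) and Usp2 (-0.050), and so did the correlation of Bhlhe40 and Usp2 (-0.19). Without GLU+GAL 7 and 8, chosen after seeing the data, it turned for Nfil3 (0.053) and Bhlhe40 (-0.034). Leaving out single mice, the difference ran from 0.37 (without GLU+GAL 8) to 0.77 for Dbp, 0.12 to 0.35 for Tef, 0.04 to 0.14 for Hlf, -0.24 to -0.05 for Nfil3, 0.22 to 0.42 for Usp2 and 0.07 to 0.18 for Wee1. For Bhlhe40 it ran from -0.015 (without GLU 12) to 0.097, and its difference in spread from -0.052 to 0.033 (without GLU 12). The count of genes past the adjusted threshold between diets ran from 0 to 1 (without GLU 3). The count of pairs past the threshold, 16 as reported, ran from 7 (without GLU+GAL 8) to 17 without single mice, was 10 without each of GLU+GAL 1, 5 and 7, and ran from 11 to 16 over 10 settings of normalisation, channel, source table, probe or slide block. It was 7 by Spearman's rho, 4 without GLU+GAL 7 and 8, and 0, 0 and 1 within slides 1, 2 and 3, where each slide has 8 mice. Replicate numbers are shared by the diets, and no label says what they mark. Of 12 same-numbered pairs, 8 correlated above 0.1 (median 0.163, against -0.015 for other numbers), and 4 of 12 GLU+GAL mice correlated best with their own number. For single measured members, the same-number correlation over 12 numbers ran from -0.339 (Bhlhe40) to 0.526 (Hlf). None passed, with a lowest adjusted permutation p of 0.436 over the 7 members. The reported fits did not use the numbers as a pairing, and what they mark is not known. With the replicate number as a block, 7 pairs passed and no member's difference did. The cause of these changes was not tested.

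With 12 mice per diet, the 95% interval for Dbp allows differences from -0.39 to 1.55, so a p that misses the threshold does not show equal levels. The pooled SDs of the dim probes of Wee1 and Usp2 were 0.581 and 0.991 with Agilent's processed signals, and 0.325 and 0.632 with no background correction. Ciart and Bhlhe41 cannot be compared at this signal. The arrays give 1 time point per mouse, and nothing in the sources used here gives its hour.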
